A study of Mus musculus with 12 samples.

Results

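The genes that load peptides onto MHC class I molecules, together with the inducible subunits of the immunoproteasome, were followed in whole lung of Balb/c mice under 3 regimens of house dust mite (HDM) exposure. The set was a list of 10 gene symbols (B2m, H2-K1, H2-D1, Tap1, Tap2, Tapbp, Psmb8, Psmb9, Psmb10 and Nlrc5), and 8 of them were measured, among 19937 genes in all. A gene was read from the probe set that the array annotation lists with that symbol alone, or, where there were several, from the one with the highest mean. H2-K1 and H2-D1, the classical class I heavy chains, were covered by 2 probe sets, each listed with several genes, and have no value here.

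All mice were Balb/c, and each of the 4 groups held 3 of them, with 1 Affymetrix mouse Gene 1.0 ST array per mouse. Control mice were given PBS alone by the nose. In the eosinophilic model, 3 intraperitoneal injections carried HDM extract at 0.75 DU of Der f and 0.75 DU of Der p on 1.5 mg of aluminium hydroxide, and the same dose was then put into the nose in 50 µl on days 26 to 28. Mixed mice received 0.75 DU of each allergen, and neutrophilic mice 7.5 DU of each, into the nose once a week for 4 applications, without aluminium hydroxide. DU are development units of the extract. The labels state no ages. No group received aluminium hydroxide alone, so in the eosinophilic group allergen, injection and adjuvant cannot be told apart, and precision is limited by there being 3 arrays in a group.

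Class I molecules show fragments of a cell's own proteins to CD8 T cells. The proteasome cuts those proteins, and under interferon its 3 catalytic subunits are replaced by Psmb8, Psmb9 and Psmb10, which form the immunoproteasome. Tap1 and Tap2 pump the peptides into the endoplasmic reticulum, tapasin (Tapbp) holds the empty class I molecule at the pump, and beta-2 microglobulin (B2m) is the light chain that every class I molecule needs. Nlrc5 is the transactivator that switches on much of this set.

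The genome places several of these genes side by side, and this is the reason for showing their promoters. In the RefSeq gene table (GRCm38.p6), 7 of the 10 members lie on chromosome 17, with Psmb9, Tap1, Psmb8 and Tap2 as consecutive protein-coding genes; 2 lie on chromosome 8 and B2m lies on chromosome 2. Promoter sequence was on hand for 8 of the 10, from RefSeq, and it is that of the reference assembly, not of Balb/c. Tap1 and Psmb9 are divergent neighbours, and the whole stretch of 225 bases between their start sites, chr17:34187331-34187555, is printed on the Tap1 strand. B2m (chr2:122147437-122147686, plus strand) and Psmb8 (chr17:34197945-34198194, plus strand) are shown by the 250 bases before the start. Only the B2m and Psmb8 windows matched an interferon-type pattern in the strict form searched, given below. The Tap1 and Psmb9 windows held no such match. Looser forms were not searched, so a window without a match may still hold such an element. Capitals mark a CCAAT box and, on the other strand, a GC box (GGGCGG) between Tap1 and Psmb9, an ISRE-type repeat (GAAA, any 2 bases, GAAA) for B2m and a GAS-type element (TTCNNNGAA) for Psmb8.
Tap1 and Psmb9: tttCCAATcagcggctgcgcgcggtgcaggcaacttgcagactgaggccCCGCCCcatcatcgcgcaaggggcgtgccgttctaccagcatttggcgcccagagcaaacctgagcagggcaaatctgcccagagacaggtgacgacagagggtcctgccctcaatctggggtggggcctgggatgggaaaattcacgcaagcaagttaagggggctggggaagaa
B2m: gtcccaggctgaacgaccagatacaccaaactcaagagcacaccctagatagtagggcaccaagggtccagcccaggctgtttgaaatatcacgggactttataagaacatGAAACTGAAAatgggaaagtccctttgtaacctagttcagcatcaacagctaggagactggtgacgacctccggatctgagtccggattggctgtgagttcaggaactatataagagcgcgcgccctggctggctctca
Psmb8: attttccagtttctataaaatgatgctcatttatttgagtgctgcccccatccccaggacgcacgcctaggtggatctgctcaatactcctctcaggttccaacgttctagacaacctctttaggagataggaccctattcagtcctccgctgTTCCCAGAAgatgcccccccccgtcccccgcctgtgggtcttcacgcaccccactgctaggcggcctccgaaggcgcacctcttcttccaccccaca

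Each motif was searched on both strands in the 250 bases before each start. The ISRE-type repeat of B2m began 139 bases before its start, and 2.98% of 32851 promoters held such a repeat. The GAS-type element of Psmb8 began 97 bases before its start, in a class that 7.02% of promoters held. The CCAAT box between Tap1 and Psmb9 lay 222 bases before the Tap1 start and the GC box 176 bases before it, motifs held by 33.8% and 32.7% of promoters. These are matches of letters, which describe the sequence and no binding.

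Values are log2 intensities made by the authors with RMA, so a difference of 1 is a doubling. A change was called where limma, fitted to all 4 groups with 1 shared estimate of the spread, gave a Benjamini-Hochberg adjusted p under 0.05 over all 19937 genes. 1 array in the eosinophilic group, that of mouse 7, differed from all others. Its values had an SD of 0.995 and a correlation of 0.356 with the gene-wise median over the remaining arrays, against SDs of 1.77 to 2.04 and correlations of 0.956 to 0.980 on 9 arrays. Eosinophilic mouse 9 (SD 1.52, r = 0.863) and neutrophilic mouse 23 (SD 1.51, r = 0.868) lay between. The summed intensity of 7 lung markers, such as Sftpc and Ager, was 881 on the array of mouse 7 and 24300 to 42400 on the other 11, so that array did not carry the lung signal its label names. Counts of genes past the threshold are therefore given with all 12 arrays and with 11, without mouse 7. Leaving mouse 7 out does not alter the mixed and neutrophilic changes from control, and alters their errors.

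**Figure D1:**
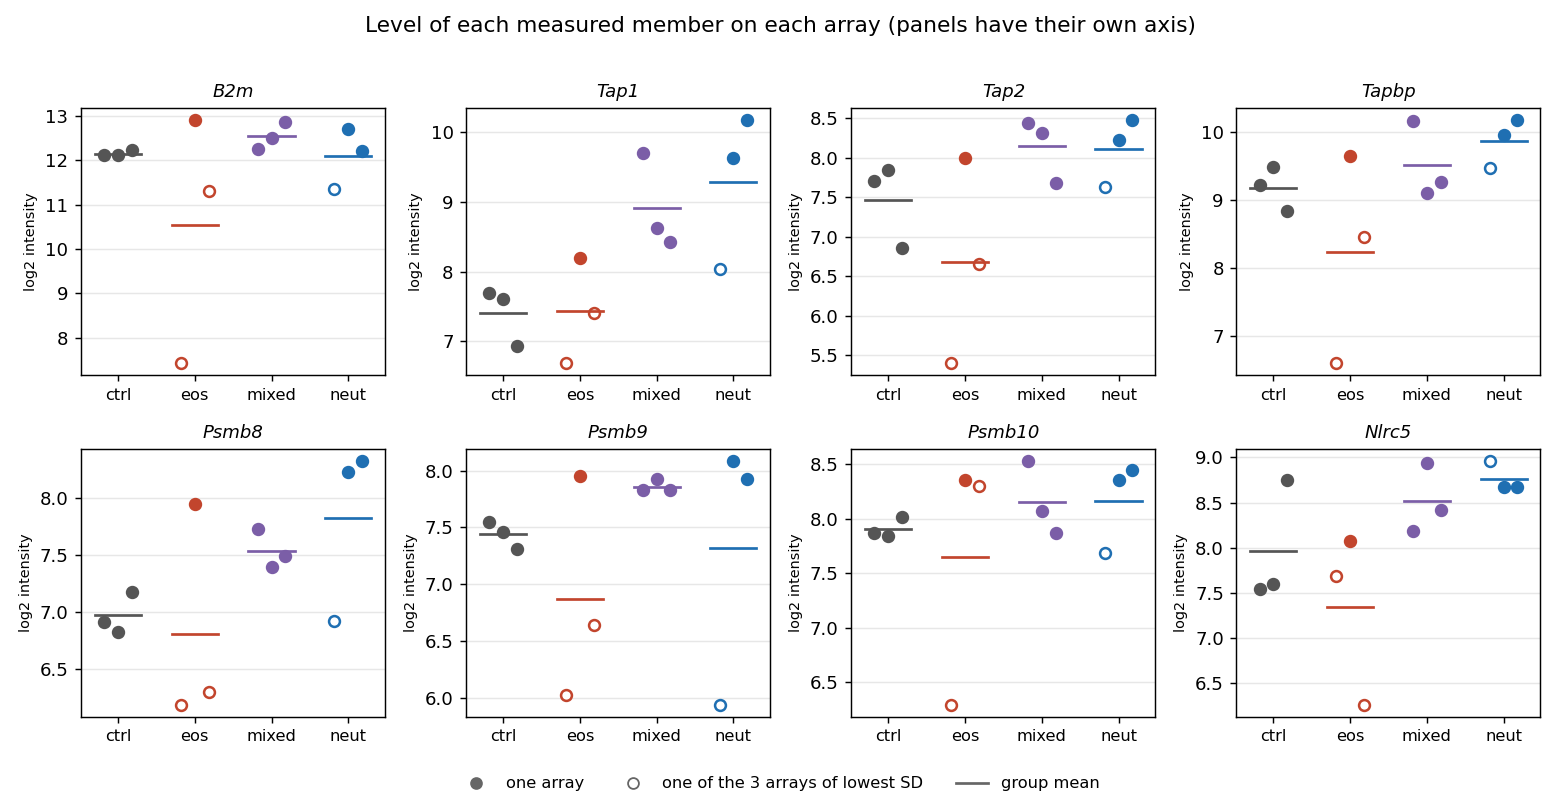
Level of each measured member on each array (log2 intensity, 1 point per mouse, line = group mean, open points = the 3 arrays of lowest SD), each panel with its own axis. Tap1 in the mixed and neutrophilic groups lies at 8.04 or more, above all 3 controls, while B2m is near 12 on most arrays and at 7.43 on the array of eosinophilic mouse 7.

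Tap1, the first chain of the peptide pump, had the largest estimated change of the members in both mixed and neutrophilic mice. Its log2 intensity was 7.70, 7.61 and 6.93 in control mice and 8.04, 9.63 and 10.18 in neutrophilic mice. All 3 neutrophilic values lay above the control values, with the lowest on the array of mouse 23. The neutrophilic mean was 9.28 ± 1.11 against 7.41 ± 0.42 in control (SD, n = 3 each), a change of 1.87 (SE 0.56, 95% interval 0.67 to 3.08) or 3.67-fold. In limma this missed the threshold with 12 arrays (adjusted p = 0.11) and passed it with 11 (SE 0.49, interval 0.82 to 2.93, adjusted p = 0.0295). Thus 0 of 8 members passed with 12 arrays, where 1 of 8 had an unadjusted p under 0.05, beside 2.11% of all genes called; with 11 arrays it was 1 of 8, beside 9.47%. The call with 11 arrays was lost on leaving out control mouse 1, 2 or 3 (adjusted p = 0.078, 0.0825 and 0.105) or neutrophilic mouse 24 or 25 (0.0961 and 0.103), and held without mouse 23 (0.0021). Without neutrophilic mouse 23 the change was 2.49 with adjusted p = 0.0319 with the other 11 arrays. In bulk lung, a change in RNA per cell and a change in the share of cells of a type cannot be told apart.

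Low-dose weekly exposure gave Tap1 values of 9.70, 8.63 and 8.42, also all above control. The mixed mean was 8.92 ± 0.69, a change of 1.51 (SE 0.56, interval 0.30 to 2.72) or 2.85-fold, which did not pass (adjusted p = 0.398 with 12 arrays and 0.144 with 11). In eosinophilic mice Tap1 was 6.69, 8.20 and 7.41, overlapping control. The change there was 0.02 with 12 arrays (SE 0.56, adjusted p = 0.976) and 0.40 with 11 (SE 0.55, adjusted p = 0.728). High and low weekly dose were compared directly too, and Tap1 differed by 0.37 (interval -0.84 to 1.57), so a difference in either direction was not resolved. Against the eosinophilic group with 12 arrays, Tap1 was higher by 1.85 in neutrophilic mice (interval 0.64 to 3.06, adjusted p = 0.38). In mixed mice it was higher by 1.48 (interval 0.28 to 2.69, adjusted p = 0.295). With 11 arrays these differences were 1.48 (interval 0.30 to 2.66, adjusted p = 0.513) and 1.11 (interval -0.07 to 2.30, adjusted p = 0.685). None passed the threshold, and without mouse 7 the mixed interval included 0.

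Tap2, the other chain of the pump, was 7.71, 7.84 and 6.86 in control mice, 8.44, 8.31 and 7.68 in mixed mice and 7.63, 8.23 and 8.48 in neutrophilic mice. Both exposed groups overlapped control. The changes were 0.67 (adjusted p = 1 with 12 arrays and 0.568 with 11) and 0.64 (0.648 and 0.343), neither past the threshold. Eosinophilic mice had 5.40, 8.0 and 6.66, with changes of -0.79 with 12 arrays (adjusted p = 0.308) and -0.14 with 11 (0.882). Tapasin was 9.22, 9.48 and 8.84 in control and 9.47, 9.95 and 10.17 in neutrophilic mice, a change of 0.69 that did not pass (adjusted p = 0.654 and 0.279). In the mixed group Tapbp was 10.15, 9.11 and 9.26, so 1 mouse stood above the control range and the others within it (change 0.33, adjusted p = 1 and 0.919). In eosinophilic mice it was 6.61, 9.64 and 8.46, with changes of -0.94 (adjusted p = 0.273) and -0.13 (0.887).

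The light chain B2m was measured at 12.11, 12.12 and 12.23 in control mice. Mixed mice had 12.27, 12.51 and 12.88, all above control, with a mean change of 0.40 that did not pass (adjusted p = 1 with 12 arrays and 0.894 with 11). Neutrophilic mice had 11.37, 12.71 and 12.22, which spanned the control values (change -0.06, adjusted p = 0.984 and 0.944). In eosinophilic mice the values were 7.43, 12.91 and 11.32. The mean change of -1.60 (SE 0.98, adjusted p = 0.26) became -0.04 without mouse 7 (SE 0.45, adjusted p = 0.972), so that 1 array made up nearly all of it. Without eosinophilic mouse 8 instead, which leaves mice 7 and 9, B2m, Tap2 and Tapbp were called lower than control. The B2m change in that limma fit was -2.78 (adjusted p = 0.0204). That fit keeps the array of mouse 7, which lacked the lung signal. The share of all genes called lower in it was not counted, so these calls are not read as a fall of the members.

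None of the 3 immunoproteasome subunits passed with 12 or 11 arrays. Psmb8 was 6.92, 6.82 and 7.18 in control, 7.73, 7.40 and 7.50 in mixed and 6.92, 8.23 and 8.33 in neutrophilic mice. The mixed values all lay above control, and the neutrophilic ones did on 2 arrays, with mouse 23 inside the control range. The neutrophilic change was 0.85 (SE 0.47, interval -0.17 to 1.88, adjusted p = 0.458; 0.243 with 11 arrays), and the mixed change 0.57 (adjusted p = 1 and 0.748). Eosinophilic mice had 6.19, 7.95 and 6.30, with changes of -0.16 (adjusted p = 0.81) and 0.15 (0.887). Without the 3 arrays of lowest SD the neutrophilic change of Psmb8 was 1.30 and passed (adjusted p = 0.000942). The neutrophilic change of Tap1 was 2.49 there and passed too (adjusted p = 0.000258), 2 of 8 members beside 16% of all genes. In the same 9 arrays Tap1 also passed in mixed mice (1.51, adjusted p = 0.0069), 1 of 8 beside 9.32%.

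Psmb9, which shares its upstream stretch with Tap1, was 7.55, 7.46 and 7.31 in control and 7.83, 7.92 and 7.83 in mixed mice. The mixed values did not overlap control, and the change of 0.42 did not pass (adjusted p = 1 with 12 arrays and 0.925 with 11). In neutrophilic mice Psmb9 was 5.94, 8.08 and 7.93, so mouse 23 lay below and the other mice above all controls, and the mean change of -0.12 (SE 0.55, adjusted p = 0.935 with 12 arrays and 0.894 with 11) averages over that split. Eosinophilic mice had 6.03, 7.95 and 6.64, on both sides of control, with changes of -0.57 with 12 arrays (adjusted p = 0.454) and -0.14 with 11 (0.905).

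Psmb10 was 7.87, 7.84 and 8.02 in control mice and 8.53, 8.07 and 7.87 in mixed mice. Neutrophilic mice had 7.68, 8.36 and 8.45, and the 2 eosinophilic arrays other than mouse 7 had 8.36 and 8.30. All these groups overlapped control except the eosinophilic pair, which lay above it with a change of 0.42 that did not pass (adjusted p = 0.484). Mouse 7 was at 6.30, and with it the change was -0.26 (adjusted p = 0.697). The mixed and neutrophilic changes were 0.24 (adjusted p = 1 with 12 arrays and 0.918 with 11) and 0.25 (0.834 and 0.585).

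**Figure D2:**
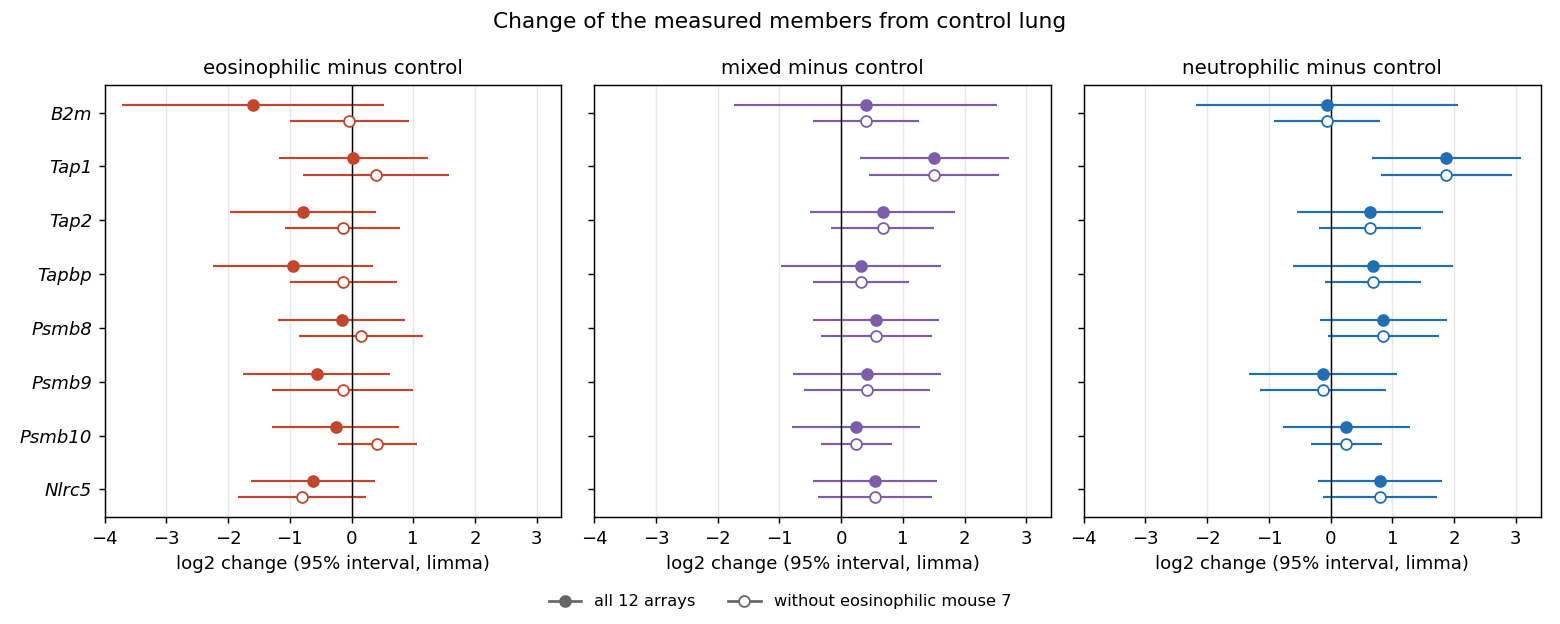
Change of each member from control lung (log2, limma estimate with its 95% interval) in the 3 exposed groups, filled with all 12 arrays and open without eosinophilic mouse 7. Tap1 has its interval above 0 in the mixed (0.30 to 2.72) and neutrophilic (0.67 to 3.08) groups, and the eosinophilic intervals all span 0.

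Over the 8 measured members the median change was 0.48 in mixed and 0.66 in neutrophilic mice, against 0.00 and 0.05 over all genes. The changes were above 0 for 8 of 8 members in mixed and 6 of 8 in neutrophilic mice. In eosinophilic mice 1 of 8 was above 0 with 12 arrays and 3 of 8 with 11, with medians of -0.60 and -0.08. No member passed in the eosinophilic comparison with 12 or 11 arrays (0 at an unadjusted p under 0.05 in limma in both; 0.497% and 1.33% of all genes called). In mixed mice likewise 0 passed (1 unadjusted, Tap1, in both; 0.471% and 2.99%). In mixed mice 4 of 8 members, B2m, Tap1, Psmb8 and Psmb9, had all values above control, beside 9.16% of all genes, and in neutrophilic mice 1 of 8, Tap1, beside 12.6%. Between exposed groups 0 of 8 members passed in limma in any of the 3 comparisons with 12 arrays, where 3, 4 and 0 had an unadjusted p under 0.05 in mixed against eosinophilic, neutrophilic against eosinophilic and neutrophilic against mixed (0.00502%, 0.115% and 0% of all genes called). With 11 arrays the unadjusted counts were 1, 2 and 0, and 0 passed (0.0502%, 0.191% and 0%). The F test for any difference among the 4 groups also passed for 0 of 8 members, Tap1 coming nearest (adjusted p = 0.165 with 12 arrays and 0.0904 with 11), beside 0.883% and 4.6% of all genes.

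Nlrc5 is read from 19 probe sets that the annotation lists with that symbol, and they differed in their changes. The one standing for the gene by the rule, the brightest, was 7.54, 7.60 and 8.75 in control mice and 8.96, 8.67 and 8.67 in neutrophilic mice, with 1 control value among the exposed ones. Its change of 0.80 (SE 0.46, adjusted p = 0.481, and 0.289 with 11 arrays) did not pass. Mixed mice had 8.18, 8.93 and 8.42 (change 0.55, adjusted p = 1 and 0.785), and eosinophilic mice 7.68, 8.07 and 6.26 (change -0.63, adjusted p = 0.332; -0.80 and 0.411 with 11 arrays). Over the 19 probe sets the neutrophilic change was above 0 in 19, with a median of 0.99 and a range of 0.31 to 2.26, and 15 had all 3 values above control, beside 12.7% of all 34760 probe sets. In a limma fit over all 34760, 2 of 19 passed as higher with 12 arrays (0.308% of probe sets) and 6 of 19 with 11 (1.12%). These 6 changed by 1.43 to 2.26, while the brightest did not pass. In mixed mice 18 of 19 were above 0 with a median of 0.81, 11 of them without overlap (8.55% of all probe sets), and 1 passed with 11 arrays (0.512%; none with 12, beside 0.115%). In eosinophilic mice the median with 12 arrays was 0.20, beside 0.18 over all probe sets, and none of 19 passed (0% and 0.0978%).

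Averaged over its 19 probe sets, a value taken after the probe sets had been seen, Nlrc5 was 5.65, 5.38 and 5.67 in control, 5.73, 5.82 and 5.69 in eosinophilic, 6.62, 6.31 and 6.16 in mixed and 6.29, 7.01 and 6.95 in neutrophilic mice. By mean the groups ran control, eosinophilic, mixed, neutrophilic, and mixed and neutrophilic values overlapped. No exposed group overlapped control, but the lowest eosinophilic value (5.69) was next to the highest control value (5.67). The neutrophilic change was 1.18 (SE 0.27, interval 0.60 to 1.77) or 2.27-fold and passed (limma adjusted p = 0.0432 with 12 arrays and 0.0117 with 11). With 12 arrays it no longer passed on leaving out control mouse 1, 2 or 3 (adjusted p = 0.179, 0.217 and 0.101) or neutrophilic mouse 24 or 25 (0.165 and 0.161), or after centring each array on its median (1.10, adjusted p = 0.125). With mouse 7 left out it was lost again without control mouse 1 or 2 (0.0513 and 0.0728) or neutrophilic mouse 24 (0.0513). The mixed change was 0.80 (SE 0.27, adjusted p = 0.319, and 0.136 with 11 arrays) and the eosinophilic one 0.18 (SE 0.27, adjusted p = 0.627), neither past the threshold. In eosinophilic mice the median change over all probe sets was also 0.18 with 12 arrays, and centring turned the Nlrc5 change to -0.06. Because the 19 Nlrc5 probe sets carry a gene-wide label only, whether they read 1 transcript was not tested.

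**Figure D3:**
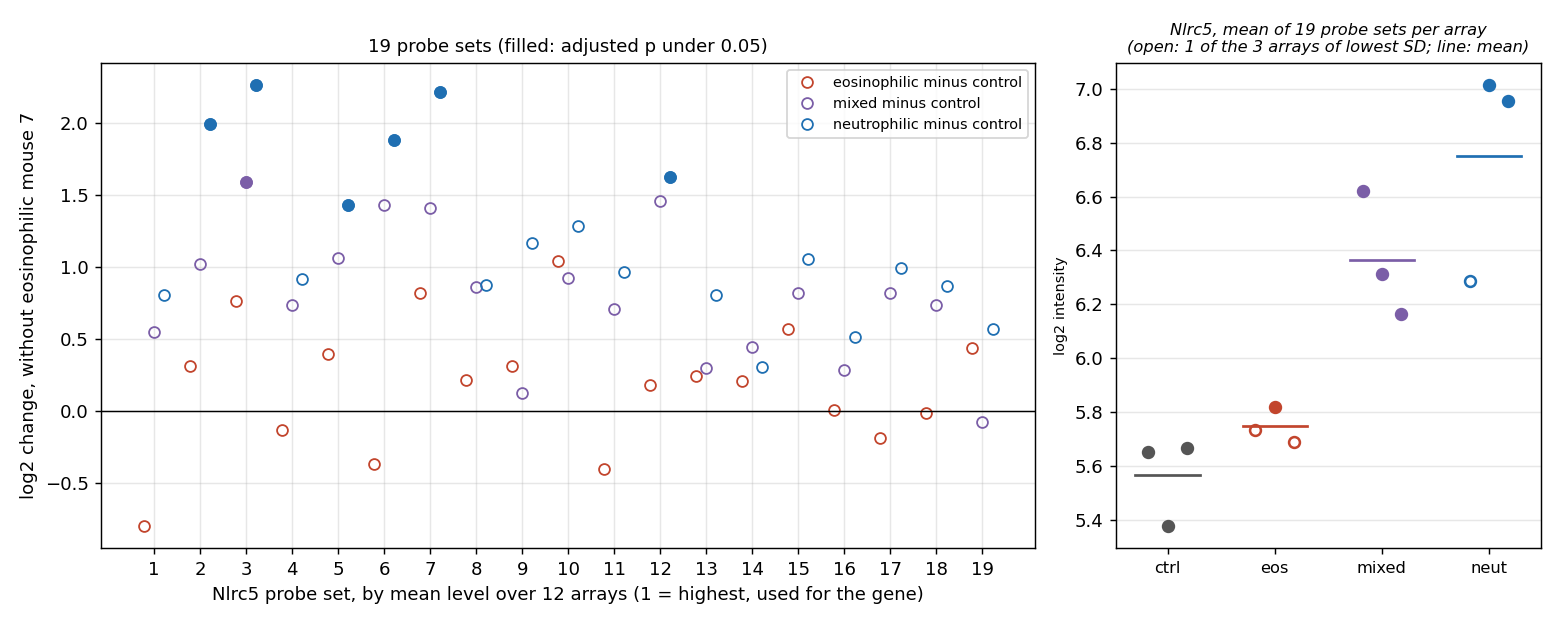
Change of each of the 19 Nlrc5 probe sets from control (log2, without eosinophilic mouse 7, filled where the adjusted p is under 0.05), ordered from the highest mean level, and beside it their mean on each array in log2 intensity (open points, arrays of lowest SD). The 6 filled neutrophilic points lie between 1.43 and 2.26, and the brightest probe set is open at 0.80.

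Other genes of the pathway were read from lists chosen by role. The constitutive catalytic subunits that the immunoproteasome subunits replace, Psmb5, Psmb6 and Psmb7, had neutrophilic changes of -0.18, 0.58 and -0.03, and 0 of 3 passed in any exposed group with 12 or 11 arrays. Of 11 other subunits of the 20S core none passed either. With 12 arrays 0.497%, 0.471% and 2.11% of all genes were called in eosinophilic, mixed and neutrophilic mice. With 11 arrays these shares were 1.33%, 2.99% and 9.47%. In the 5 activator and assembly genes, Psme4 (PA200) fell by 0.98 in neutrophilic mice in limma (adjusted p = 0.0284 with 11 arrays, 0.449 with 12). Of all genes, 7.23% were called lower there with 11 arrays and 1.45% with 12. The interferon-inducible PA28 subunits Psme1 and Psme2 had neutrophilic changes of 0.34 and 0.14, Psme3 of 0.17 and the assembly factor Pomp of -0.14, none past the threshold.

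Among 15 measured genes of loading and peptide trimming, Lap3, a cytosolic leucine aminopeptidase, rose by 1.06 in mixed mice in limma (adjusted p = 0.0272 with 11 arrays, 0.9 with 12). No other of the 15 passed in any exposed group. Of all genes, 1.41% were called higher in mixed mice with 11 arrays and 0.326% with 12. Lap3 was at most 7.94 in control, 8.47 and 8.92 in eosinophilic mice without mouse 7, and 5.63 on the array of mouse 7. The neutrophilic changes of the chaperone calnexin (Canx) and the oxidoreductase Pdia3, which help fold class I chains, were -0.89 (adjusted p = 0.736 with 12 arrays and 0.0661 with 11) and -0.81 (0.671 and 0.12). Of 17 other class I chain genes measured, Mr1, which presents microbial metabolites to MAIT cells, fell by 2.33 in neutrophilic mice (adjusted p = 0.0424 with 12 arrays and 0.00805 with 11). The mean of Mr1 was 8.71 in control, 6.47 in eosinophilic (6.79 without mouse 7), 7.52 in mixed and 6.37 in neutrophilic mice. It was thus lower than control in all 3 exposed groups. The highest exposed value was 7.74, in mixed mice, and the lowest control value 8.22. The other chain genes did not pass in limma. Among them were H2-M2 (0.83, adjusted p = 0.231 with 12 arrays and 0.0868 with 11) and H2-Q2 (0.73, 0.271 and 0.0859). Genes called lower in neutrophilic mice made up 1.45% of all genes with 12 arrays and 7.23% with 11.

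Some regulators of the pathway passed the test. With 11 arrays, 3 of 19 rose and 1 fell in neutrophilic mice, 2 rose in mixed mice and none passed in eosinophilic mice. Of all genes, 2.24% were called higher and 7.23% lower in neutrophilic mice and 1.41% higher in mixed mice. With 12 arrays 2 rose in neutrophilic mice, Socs1 and Relb, beside 0.662% of all genes called higher, and none passed in the other groups. The count of 2 fell to 0 on leaving out control mouse 1 or 2 or neutrophilic mouse 24 or 25 and after centring each array on its median, and to 1 without control mouse 3 and with all probe sets tested. Socs1, the feedback inhibitor of interferon signalling, lay between 5.53 and 5.69 in control, 6.91 and 7.59 in mixed and 7.40 and 8.50 in neutrophilic mice. Both of these exposed groups lay above control without overlap, while mixed and neutrophilic values overlapped each other. In eosinophilic mice Socs1 was 6.09 and 6.66 without mouse 7, also above control, and 5.08 on the array of mouse 7. It rose by 2.46 in neutrophilic mice (adjusted p = 0.0123 with 12 arrays, 0.000531 with 11) and by 1.64 in mixed mice with 11 arrays (0.0116; 0.127 with 12). Irf1, a transcription factor that binds the ISRE, lay between 8.04 and 8.22 in control and 8.95 and 10.42 in neutrophilic mice. It rose by 1.77 there with 11 arrays (adjusted p = 0.0105, 0.27 with 12), and its mixed change of 1.42 did not pass (0.0604 with 11). Relb, an NF-kappaB subunit, rose by 1.71 in neutrophilic mice (adjusted p = 0.0366 with 12 arrays, 0.00819 with 11) and by 1.42 in mixed mice with 11 (0.0427). Eosinophilic values of Relb, from 6.12 to 6.53, also lay above those of control, 5.77 to 5.87, and the change did not pass. Creb1 fell by 1.32 in neutrophilic mice in limma with 11 arrays (adjusted p = 0.0483, 0.19 with 12).

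How many genes known to respond to interferon gamma passed depended on the arrays in the fit; Socs1 and Irf1 are on this list as well. In neutrophilic mice 4 of 13 measured rose with 12 arrays and 10 of 13 with 11, with a median change of 1.97; in mixed mice 2 and 7 rose, with a median of 1.76; in eosinophilic mice 0 and 1 rose, with a median of 0.76 with 11 arrays. Of all genes, 0.662% and 2.24% were called higher in neutrophilic, 0.326% and 1.41% in mixed and 0.0752% and 0.451% in eosinophilic mice. Cxcl10, a chemokine for CXCR3-bearing T cells, rose by 5.63 in neutrophilic mice (adjusted p = 0.00854 with 12 arrays and 0.000387 with 11) and 5.17 in mixed mice (0.0187 and 0.00107). Gbp5, an interferon-induced GTPase, rose by 2.96 (adjusted p = 0.0116 and 0.000559) and 3.02 (0.0181 and 0.00073). From the 12 arrays, the mixed count of 2 fell to 0 on leaving out any 1 control or mixed array and after centring, and to 1 after quantile normalization. The neutrophilic count of 4 fell to 0 without control mouse 1 or 2 or neutrophilic mouse 25, to 1 without neutrophilic mouse 24 and after centring, and was 8 without mouse 23. Without mouse 7, leaving out 1 further control or neutrophilic array gave 4 to 10 of 13 in neutrophilic mice, the lowest without control mouse 1.

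The type I interferon response genes gave 2 of 16 in neutrophilic and 2 of 16 in mixed mice with 12 arrays, and 8 and 7 with 11. From the 12 arrays, the mixed count fell to 0 on leaving out any 1 control or mixed array, after centring, and with all probe sets tested. The neutrophilic count fell to 0 without control mouse 1 or 2 and to 1 without control mouse 3, without neutrophilic mouse 24 or 25, after centring or quantile normalization, and with all probe sets tested. In eosinophilic mice none of 16 passed with 12 arrays and 2 with 11, Ifit1 at 2.89 (adjusted p = 0.00887) and Rsad2 at 3.05 (0.0126), against 1.51 (0.243) and 2.01 (0.134) with 12. The antiviral gene Oasl1 rose by 3.24 in neutrophilic mice (adjusted p = 0.00813 with 12 arrays and 0.000653 with 11) and 2.80 in mixed mice (0.0216 and 0.00299). Interferon genes and their receptors themselves did not pass in any exposed group (0 of 10 measured). Ifng changed by 0.65, 0.57 and 0.73 in eosinophilic, mixed and neutrophilic mice with 11 arrays (adjusted p = 0.532, 0.8 and 0.365). With 12 arrays its adjusted p was 0.23, 1 and 0.57, and the eosinophilic change was 0.91. The control means of Ifng, Ifnb1, Ifna4 and Ifnk were 4.29, 3.67, 3.81 and 3.56. These lay below the lowest median of a control array, 4.94, so a change in these genes may go unseen.

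**Figure D4:**
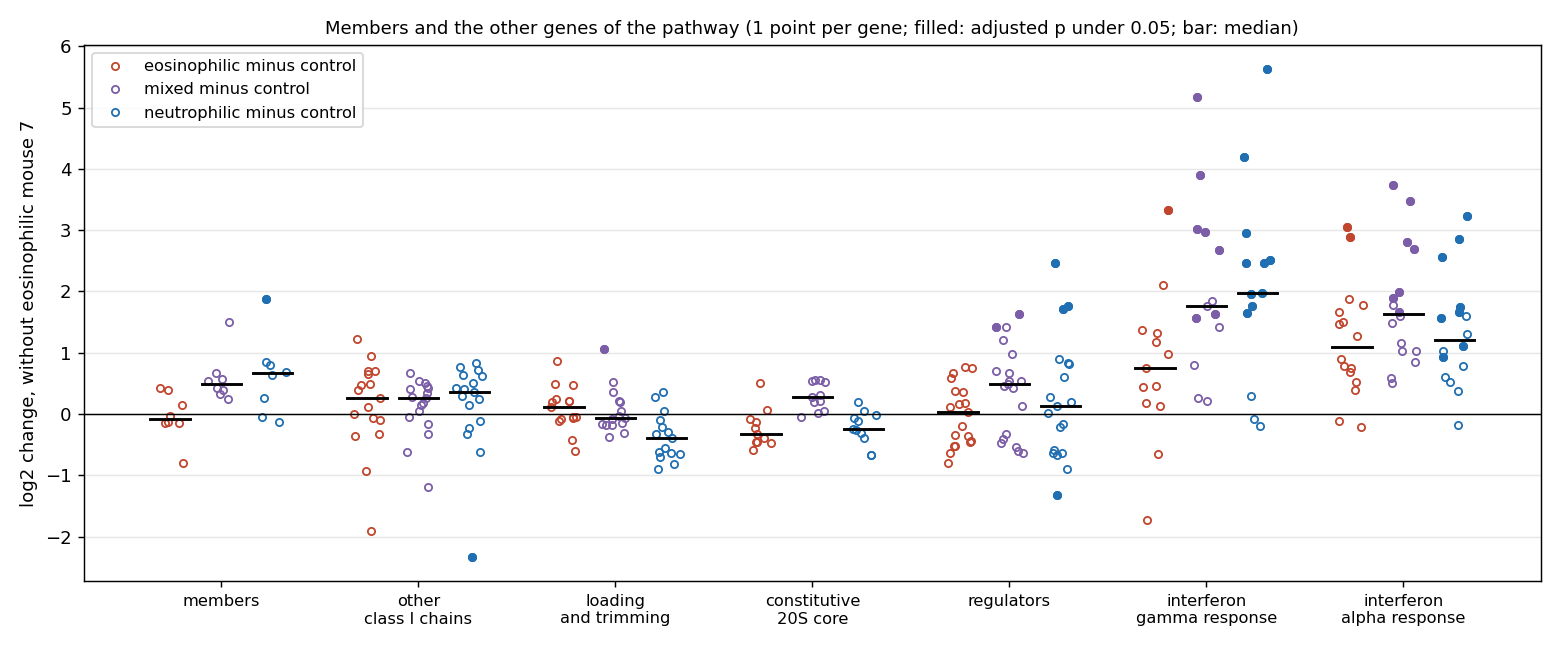
Change from control (log2, without eosinophilic mouse 7) of every measured gene of the pathway lists, 1 point per gene, filled where the adjusted p is under 0.05 and with a bar at the median. The interferon gamma response genes have medians of 0.76, 1.76 and 1.97 in eosinophilic, mixed and neutrophilic mice, and the members of -0.08, 0.48 and 0.66.

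Neutrophil markers and some endothelial, dendritic cell and macrophage markers also differed from control. All 6 neutrophil markers, such as S100a9, rose in mixed mice with 11 arrays and 5 of 6 in neutrophilic mice (0 and 4 with 12). Beside them, 1.41% and 2.24% of all genes were called higher with 11 arrays (0.326% and 0.662% with 12). The summed intensity of the neutrophil markers ran from 537 to 916 in control, 1130 to 2610 in eosinophilic (without mouse 7), 2840 to 4170 in mixed and 2030 to 4670 in neutrophilic mice. Of 6 blood endothelial markers, 1, 2 and 3 fell in eosinophilic, mixed and neutrophilic mice with 11 arrays, and none with 12, beside 0.883%, 1.57% and 7.23% of all genes called lower with 11 (0.421%, 0.145% and 1.45% with 12). Their sums were 9750 to 12600 in control, 6160 to 6870 in eosinophilic (without mouse 7), 4660 to 8540 in mixed and 3880 to 6310 in neutrophilic mice. Of the 4 general leukocyte markers (Ptprc, Itgb2, Coro1a, Laptm5) none passed, and their sums overlapped between control (2010 to 2880), mixed (2280 to 3910) and neutrophilic mice (1860 to 4870). Markers of CD8 T cells and of NK cells, whose receptors read class I molecules, passed for 0 of 4 each. Among 7 dendritic cell and macrophage markers 2 rose in neutrophilic and 1 in eosinophilic mice with 11 arrays (none with 12). With 11 arrays 2.24% and 0.451% of all genes were called higher in these groups. The part of the cell types named here in the values of Tap1, Nlrc5 and the response genes was not tested.

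The genes whose log2 values followed the mean of the members most closely over 11 arrays were Rhoc (Pearson r = 0.971), Etv3 (0.966), Ptafr (0.965), H2-Q5 (0.963), Trim11 (0.963), Taf10 (0.954), Tigit (0.953) and Cebpb (0.952). These correlations describe arrays that share group and spread, and with all 12 arrays 7 of the 8 stayed at 0.91 or more while Tigit was at 0.582. H2-Q5 is itself a class I chain gene. Its changes were 0.46 in mixed and 0.77 in neutrophilic mice and did not pass (adjusted p = 1 and 0.698 with 12 arrays, 0.76 and 0.205 with 11).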

How the data were processed

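The deposited values were log2 intensities. Per the submitters' processing notes, RMA and Affymetrix Expression Console produced them, with versions and genome build not given in the sources used here. Groups were compared within a probe set; mean levels served only to choose or order the probe sets of a gene. The table held 34760 probe sets on 12 arrays. The members, the gene lists and the naming rule (all members, the leading genes of each list by the F test, and the 8 genes most like the members) were chosen with earlier results of these data known.

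Probe sets with 1 gene symbol (21640) were used, and the one with the highest mean stood for its gene, which left 19937 genes. The rule for counts spoke of 10 members, of which 8 could be measured. limma 3.58.1 in R 4.3.3 (lmFit, eBayes without trend, 1 mean per group) was fitted to log2 values, two-sided, with Benjamini-Hochberg adjustment over 19937 genes. The labels name no batch and do not say that mice were pooled. The fit was tested on simulated data. Alternatives were a filter on dim genes (3 or more arrays at a log2 value of at least 5), centring, quantile normalization, trend, means of probe sets, fits of the 2 groups compared and leaving out arrays.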

Additional observations from a re-analysis of the deposited data

Results flagged for a closer look

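Of the Nlrc5 probe sets that did not stand for the gene, some were higher than in control although the one used was not. Without eosinophilic mouse 7, 6 of the 19 probe sets passed the threshold in neutrophilic mice and 1 of the 19 passed in mixed mice. Their ranks by mean level ran from 2 to 12.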

How the results depend on the processing

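No paired analysis was possible because the groups share no replicate numbers. The share of all genes called was counted only with 12 arrays, without mouse 7 and without the 3 arrays of lowest SD, and is given above. Counts of members under other settings stand without it and cannot be set against all genes. The number of members past the threshold with 12 arrays was 0 in every comparison. In neutrophilic mice against control it was 1 after quantile normalization, 1 without eosinophilic mouse 7, 1 with the mean of probe sets (2 with that mean and no mouse 7), 1 with only the 2 groups fitted, 2 without the 3 arrays of lowest SD, and 3 with quantile normalization and no mouse 7. In mixed mice it was 1 without the 3 arrays, 1 with quantile normalization and no mouse 7, and 1 with only the 2 groups fitted. Leaving out 1 array of the compared groups gave 0 to 3 in eosinophilic mice against control. It gave 0 to 0 in mixed and 0 to 1 in neutrophilic mice against control. Between exposed groups the counts were 0 to 7 for mixed against eosinophilic and 0 to 6 for neutrophilic against eosinophilic. For neutrophilic against mixed they were 0 to 0. The 3, 7 and 6 all came without eosinophilic mouse 8, which leaves mouse 9 and mouse 7, whose array lacked the lung signal. The share of all genes called was not counted there, so the 3, 7 and 6 are not read as a result about the members. Signs turned mainly in the eosinophilic comparison, for changes that did not pass with 12 arrays. Centring, which moved the median of all genes there by -0.24, gave Tap1 -0.22 and the Nlrc5 mean -0.0615. Quantile normalization gave Psmb8 0.30, Psmb10 0.35 and Nlrc5 0.33, and in neutrophilic mice B2m 0.048 and Psmb9 0.026. Without mouse 7, Psmb8 was 0.15 and Psmb10 0.42, also with the mean of probe sets, where Nlrc5 was 0.19 (0.18 with 12 arrays). Without mouse 7 and with quantile normalization B2m was 0.12, Tap2 0.17, Tapbp 0.16, Psmb8 0.38, Psmb9 0.16 and Psmb10 0.77, and in neutrophilic mice B2m 0.048 and Psmb9 0.026. Without the 3 arrays B2m was 0.76, Tap2 0.53, Tapbp 0.46, Psmb8 0.98, Psmb9 0.51, Psmb10 0.45 and Nlrc5 0.10, and in neutrophilic mice B2m 0.31 and Psmb9 0.56. Leaving out single arrays gave, in eosinophilic mice, Tap1 -0.36 to 0.40, Psmb8 -0.73 to 0.15 and Psmb10 -0.61 to 0.42, in neutrophilic mice B2m -0.36 to 0.31 and Psmb9 -0.50 to 0.56, and Tap1 in neutrophilic against mixed mice from -0.081 to 0.99. The cause was not tested. The filter on dim genes kept 13370 genes and all 8 members.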
